A study of Mus musculus with 9 samples.

Results

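The 7 cyclin-dependent kinase (CDK) inhibitor genes Cdkn1a, Cdkn1b, Cdkn1c, Cdkn2a, Cdkn2b, Cdkn2c and Cdkn2d were followed among 21938 protein-coding genes of the GENCODE M21 annotation (mm10). For each gene, the ATAC-seq peaks that touched the 1 kb on either side of any annotated transcription start site (TSS) were taken as promoter peaks, and the peaks that touched the gene body or the 10 kb on either side of it were taken as its locus. Genes and windows were set by name and position, not by a value in these lists, but with earlier results of these data known. The study itself names Cdkn1c among its examples of activation together with altered accessibility in Anp32e null cells. ATAC-seq reads out where the Tn5 transposase can enter chromatin. There was 1 peak list for each of 4 groups of primary mouse embryonic fibroblasts (MEFs, passage below 8). The WT list merged 3 libraries of wild-type cells and the Anp32e null list merged 3 libraries of cells that lack ANP32E, a chaperone that removes the histone variant H2A.Z from chromatin. The NT siRNA list came from 1 library and the H2A.Z siRNA list from 2 libraries, both of Anp32e null cells collected 48 h after transfection with a non-targeting siRNA pool or with a pool of 4 siRNAs against H2A.Z. All groups except WT therefore carried the Anp32e deletion, and the siRNA groups had been transfected as well. The study left out 1 library of the knockdown experiment as over-tagmented, and does not say of which siRNA. The MEFs were prepared from embryos, and how many embryos stood behind each group is not given in the sources used here. Because every group had a single list, no difference between groups could be tested from these lists, and all values below describe them. Signal tracks were not analysed here.

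CDK inhibitors slow or stop the cell cycle by binding cyclin-dependent kinases. The CIP/KIP family (p21 from Cdkn1a, p27 from Cdkn1b and p57 from Cdkn1c) binds several cyclin-CDK complexes, whereas the INK4 family (p16 from Cdkn2a, p15 from Cdkn2b, p18 from Cdkn2c and p19 from Cdkn2d) binds the cyclin D partners CDK4 and CDK6. Cdkn2a also encodes ARF, which stabilises p53, from an upstream start of its own. Cdkn1a is a classical p53 target, Cdkn1c is imprinted and expressed from the maternal allele, and Cdkn2a and Cdkn2b lie next to each other in a locus whose expression climbs as cultured fibroblasts approach senescence.

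The promoter sequences of starts with a peak in every list are shown first, beside that of the upstream Cdkn1a start, which had none. RefSeq promoters (GRCm38.p6, 250 bases before to 50 bases after a start) matched 6 of the 7 genes with 9 entries, and Cdkn1c was not among them. The bases ahead of the annotated transcripts are printed 5′ to 3′ for the starts that the results turn on, followed by 201 bases around the Cdkn1a summit of the H2A.Z siRNA list, which was read from the same genome build. Capitals mark every match to the motifs searched on both strands, which are given here by their letters or name. GGGCGG stands for an SP1 site and CCAAT for an NF-Y site. An E2F site was searched as TTTCGCGC, TTTGGCGC or TTTCCCGC. TGANTCA stands for an AP-1 site, GTAAACA for a FOXO site and TATAAA for the TATA box. The p53 response element was searched by its full consensus and is referred to by name.
Cdkn1a upstream start, chr17:29090729-29090975, plus strand: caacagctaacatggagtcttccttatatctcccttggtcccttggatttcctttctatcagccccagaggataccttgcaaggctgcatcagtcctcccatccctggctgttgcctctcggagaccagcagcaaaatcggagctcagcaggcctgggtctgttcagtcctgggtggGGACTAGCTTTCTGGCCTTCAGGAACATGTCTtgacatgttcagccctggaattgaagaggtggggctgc
Cdkn1a downstream start, chr17:29093519-29093768, plus strand: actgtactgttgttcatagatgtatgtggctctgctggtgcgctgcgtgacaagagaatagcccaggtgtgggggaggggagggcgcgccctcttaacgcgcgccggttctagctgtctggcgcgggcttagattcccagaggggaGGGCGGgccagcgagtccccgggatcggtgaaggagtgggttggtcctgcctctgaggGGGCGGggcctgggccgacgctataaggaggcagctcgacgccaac
Cdkn1a intron summit, chr17:29095405-29095605, plus strand: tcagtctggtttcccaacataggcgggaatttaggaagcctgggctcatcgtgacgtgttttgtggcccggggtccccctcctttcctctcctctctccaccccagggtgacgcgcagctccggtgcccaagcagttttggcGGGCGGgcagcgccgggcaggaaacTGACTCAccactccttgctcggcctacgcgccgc
Cdkn1b start, chr6:134920151-134920400, plus strand: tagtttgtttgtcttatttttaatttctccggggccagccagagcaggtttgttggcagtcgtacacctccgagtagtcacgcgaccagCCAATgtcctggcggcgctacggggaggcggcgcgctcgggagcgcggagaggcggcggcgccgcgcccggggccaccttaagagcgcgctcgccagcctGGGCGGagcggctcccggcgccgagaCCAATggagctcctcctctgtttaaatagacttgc
Cdkn2a ARF start, chr4:89294654-89294869, minus strand: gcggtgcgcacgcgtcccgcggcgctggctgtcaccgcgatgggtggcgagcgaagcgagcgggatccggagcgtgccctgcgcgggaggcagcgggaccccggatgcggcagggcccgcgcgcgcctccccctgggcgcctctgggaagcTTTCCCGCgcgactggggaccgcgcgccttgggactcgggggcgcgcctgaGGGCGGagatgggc
Cdkn2a p16 start, chr4:89282193-89282442, minus strand: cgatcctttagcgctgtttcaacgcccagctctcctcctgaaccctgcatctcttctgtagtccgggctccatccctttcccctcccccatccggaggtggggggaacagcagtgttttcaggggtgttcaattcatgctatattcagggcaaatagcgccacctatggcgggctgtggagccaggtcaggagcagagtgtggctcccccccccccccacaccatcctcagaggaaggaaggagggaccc
Cdkn2b start, chr4:89311040-89311282, minus strand: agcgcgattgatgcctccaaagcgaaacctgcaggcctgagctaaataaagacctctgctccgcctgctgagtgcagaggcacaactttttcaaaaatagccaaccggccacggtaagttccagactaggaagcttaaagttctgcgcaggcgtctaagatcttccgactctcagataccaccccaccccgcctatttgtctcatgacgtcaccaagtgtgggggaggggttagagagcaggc

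The upstream Cdkn1a promoter held 2 CpG dinucleotides and the only match to the full p53 consensus in any of the 7 gene loci. Matches with a position off were not searched over the loci. The element spans chr17:29090906-29090937, ends in the half-site GAACATGTCT, and is followed by tgacatgttc, which matches the half-site at 9 of 10 positions, so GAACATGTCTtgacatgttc also reads as a pair of half-sites with 1 position off. The same pattern was found in 0.0731% of the 32851 promoter entries. No list had a peak within 1 kb of this start, and the nearest peak lay 2457 bp from the element in WT and 2595 bp in Anp32e null cells, 2535 bp with NT siRNA and 2506 bp with H2A.Z siRNA. The downstream Cdkn1a promoter, which lay under a peak in every list, held 23 CpGs and 2 copies of GGGCGG.

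The other printed promoters were CpG-rich to different degrees, with 45 CpGs at the ARF start, 30 at Cdkn1b, 18 at Cdkn2b and 12 at the p16 start, against a median of 7 over all promoter entries. The downstream Cdkn2c start, also under a peak in every list, held 8 CpGs and 44.0% G and C, less than the 54.7% at the upstream Cdkn1a start. These counts cover the whole RefSeq window, so they include bases after a start that are not printed. GGGCGG, the core of an SP1 site, was present in 7 of the 9 CDK inhibitor entries and in 35.7% of all entries. The 2 entries without it were the upstream start of Cdkn1a and the downstream start of Cdkn2c. At p16 and Cdkn2b the match lay after the start, 26 and 6 bp into the transcript. CCAAT was present in 4 of the 9 entries, with 3 copies at Cdkn1b (the last 47 bp after the start), and in 37.4% of all entries. The ARF promoter held the E2F match TTTCCCGC, and an E2F match was found in 1.84% of entries. AP-1 letters occurred in none of the 9 entries (7.81% of all entries), but 1 copy of TGACTCA lay beside the intronic Cdkn1a summit. FOXO letters (3.65% of all entries) and the TATA box (13.6%) were in none of the 9 entries, which says only that these letters are not in these windows. A match of letters is a description and not evidence of binding.

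The lists differed in depth, and this bears on every comparison that follows. They held 84040 peaks on the assembled chromosomes for WT and 82567 for Anp32e null cells, 89272 with NT siRNA and 108409 with H2A.Z siRNA. The genome-wide background recovered from the peak statistics was 8.85, 5.12, 3.88 and 17.8 fragments in the same order, so that the H2A.Z siRNA list was 4.59 times as deep as the NT siRNA list and the WT list 1.73 times as deep as the Anp32e null list. Promoter peaks of 10 of 10 fibroblast markers were present in all 4 lists and so were those of 3 of 4 epithelial, 3 of 4 endothelial, 2 of 3 neural, 1 of 4 blood, 1 of 3 pluripotent and 0 of 2 muscle markers, so a promoter peak alone does not mark the cell type. Ptprc, Nanog and Myog had none in any list. A peak list gives the pooled accessibility of many cells, so that fewer open cells and less opening per cell cannot be told apart.

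Every CDK inhibitor gene had a promoter peak in every list, 7 of 7 in each. Over all protein-coding genes the share with a promoter peak was 67.2% in WT and 66.7% in Anp32e null cells, 66.8% with NT siRNA and 68.4% with H2A.Z siRNA, and 63.8% had one in all 4 lists. Where the genes differed was in the standing of that peak. Each peak was ranked within its own list by its enrichment, the summit pileup over the local background, and is given as a percentile in which 100 is the most enriched peak of the list. The median percentile of the 7 genes was 88.0 in WT, 83.3 in Anp32e null cells and 75.4 after either siRNA, whereas the median over all protein-coding genes with a promoter peak stayed between 79.5 and 81.7. Ranked by p-value in place of enrichment, the median of the 7 genes lay between 93.5 and 96.4 in the 4 lists, with no lower value in the siRNA lists. The genes fell into an accessible set (Cdkn2b, Cdkn2a, Cdkn1b, Cdkn2c and Cdkn2d), Cdkn1a near the middle of each list, and Cdkn1c, which was lowest in WT, Anp32e null and NT siRNA cells. With no replicate lists, neighbours in this order, such as Cdkn1b at 88.1 and Cdkn2c at 88.0 in WT cells, cannot be told apart.

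**Figure D1:**
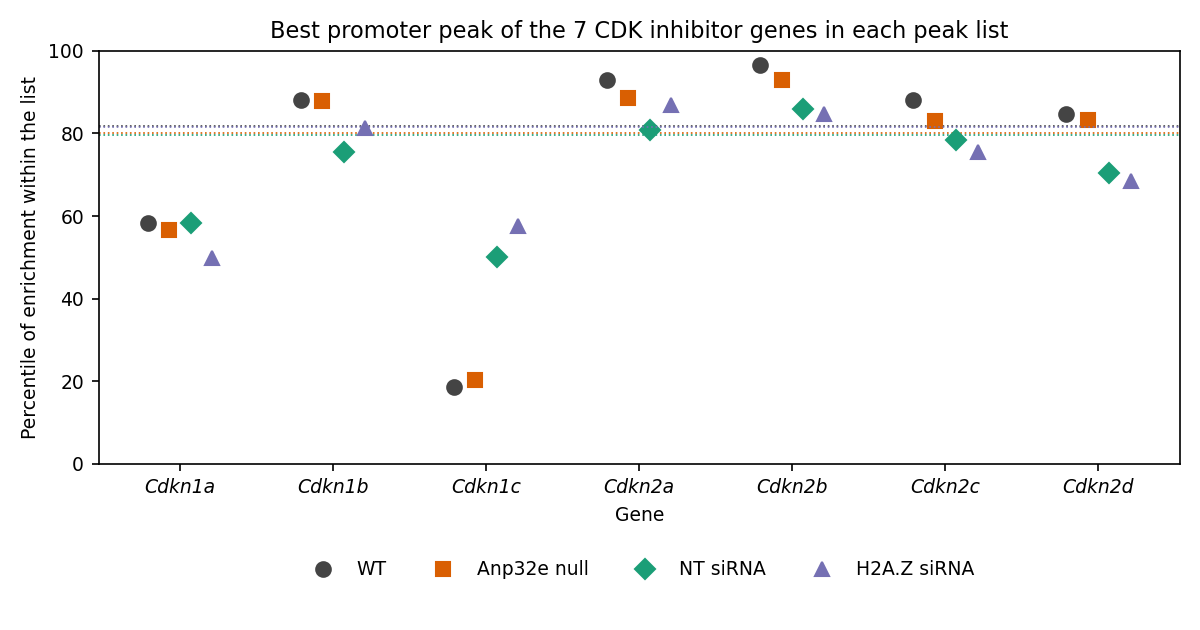
Percentile of enrichment (y axis) of the best promoter peak of each gene (x axis) in the 4 peak lists, 1 marker per list. Dotted lines give the median over all protein-coding genes with a promoter peak in that list, between 79.5 and 81.7. Cdkn1c stood at 18.5 and 20.3 in WT and Anp32e null cells and at 50 and 57.6 in the siRNA lists.

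Cdkn1a (ENSMUSG00000023067.14, chr17:29090976-29100727, plus strand) encodes p21, which inhibits CDK2 complexes and binds PCNA. Its best promoter peak was at percentile 58.3 in WT, 56.7 in Anp32e null cells, 58.3 with NT siRNA and 49.8 with H2A.Z siRNA. Ranked by p-value, its best promoter peak was at 70.9, 74.0, 91.1 and 88.3 in the same order, higher in both siRNA lists. The summit of that peak was not at a Cdkn1a start. It lay 1744 bp, 1724 bp, 1801 bp and 1724 bp downstream of the nearest Cdkn1a start, inside an intron of Cdkn1a, at the sequence printed above. AC167363.2, a gene model on the opposite strand that awaits experimental support, starts under the same peak in every list, 1044 to 1121 bp from its summit. The start itself was covered by a separate small peak in WT cells (449 bp, percentile 19.6, 61 fragments) and in NT siRNA cells (405 bp, percentile 31.7, 231 fragments), while 1 peak of 2380 bp and 2459 bp ran over both elements in Anp32e null and H2A.Z siRNA cells. Neither the upstream start with the p53 element nor the internal start at position 29097900 had a peak within 1 kb in any list.

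Cdkn1b (ENSMUSG00000003031.14, chr6:134920401-134925513, plus strand) encodes p27, which restrains CDK2 in resting cells. Its promoter peak was at percentile 88.1 in WT, 87.8 in Anp32e null cells, 75.4 with NT siRNA and 81.4 with H2A.Z siRNA. The summit stayed within 31 bp of the start in every list, and the peak kept a width of 1596 to 1753 bp. By enrichment the WT and Anp32e null lists were nearly level and both siRNA lists were lower, whereas ranked by p-value the 4 lists lay between 94.7 (WT) and 97.9 (H2A.Z siRNA).

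Cdkn1c (ENSMUSG00000037664.13, chr7:143458339-143461050, minus strand) encodes p57, a maternally expressed inhibitor of cell proliferation in the embryo. Its promoter peak was the weakest of the family in untransfected cells, at percentile 18.5 in WT and 20.3 in Anp32e null cells. It stood at 50 with NT siRNA and 57.6 with H2A.Z siRNA, so the siRNA lists did not overlap the untransfected lists. By enrichment it was the 1 gene of the 7 ranked higher in both siRNA lists than in both untransfected lists. So were 27.7% of 13986 protein-coding genes with a promoter peak in all 4 lists. Ranked by p-value, Cdkn1a, Cdkn2b and Cdkn2d were also higher in both siRNA lists. The Cdkn1c summit lay within 32 bp of the upstream start in every list. It held 52 fragments in WT (95% Poisson interval 38.8 to 68.2, counting error only), 41 in Anp32e null (29.4 to 55.6), 80 in NT siRNA (63.4 to 99.6) and 335 in H2A.Z siRNA cells (300 to 373). Divided by the genome-wide background of each list, these heights were 5.88, 8.01, 20.6 and 18.8.

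The Cdkn1c peak also differed in extent. It was 779 bp wide in WT, 675 bp in Anp32e null and 898 bp in NT siRNA cells, and 1843 bp in H2A.Z siRNA cells. The wide peak ran from -194 to 1648 bp relative to the upstream start, into the gene, past the start group at position 143460173, over the start of the antisense gene Gm44732, and up to 91 bp from the most downstream start. In NT siRNA cells the far end of this stretch carried a peak of its own, 296 bp wide with 28 fragments at percentile 5.62. In WT and Anp32e null cells no peak was called there, and the nearest peak was 1081 bp and 1165 bp from the most downstream start.

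Cdkn2a (ENSMUSG00000044303.6, chr4:89274471-89294653, minus strand) had a peak at both of its starts in every list. At the ARF start the percentile was 92.9 in WT, 88.5 in Anp32e null cells, 80.5 with NT siRNA and 86.9 with H2A.Z siRNA. At the p16 start it was 91.5, 84.5, 80.8 and 85.5 in the same order, so WT was highest and NT siRNA lowest at both starts. Anp32e null stood above H2A.Z siRNA at ARF and below it at p16. Ranked by p-value, the better start of Cdkn2a was again lowest in NT siRNA (92.8) but highest in H2A.Z siRNA cells (96.4). The ARF peak was the wider of the pair (1674 to 1880 bp against 1266 to 1462 bp). Because the better-ranked start represented the gene, ARF stood for Cdkn2a in 3 lists and p16 in the NT siRNA list, where they differed the least, 80.8 against 80.5.

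Cdkn2b (ENSMUSG00000073802.5, chr4:89306299-89311039, minus strand) encodes p15, an INK4 protein induced by TGF-β. Its promoter peak was at percentile 96.6 in WT, 93.0 in Anp32e null cells, 86.0 with NT siRNA and 84.7 with H2A.Z siRNA, the highest of the 7 genes in the first 3 lists. The summit lay 182 to 296 bp inside the transcript, in its untranslated leader, and the width was 1150 to 1224 bp. In H2A.Z siRNA cells Cdkn2a, at 86.9, stood above it. Ranked by p-value, Cdkn2b was at 98.3 in WT, 97.1 in Anp32e null cells and 98.4 with either siRNA, above Cdkn2a (96.4) with H2A.Z siRNA.

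Cdkn2c (ENSMUSG00000028551.14, chr4:109660876-109667189, minus strand), which encodes p18, carried 1 broad peak over both of its start regions in every list. The percentile was 88.0 in WT, 83.1 in Anp32e null cells, 78.3 with NT siRNA and 75.4 with H2A.Z siRNA. At 2103 to 2310 bp this peak was about as wide as the Cdkn1a peaks that ran together. Cdkn2d (ENSMUSG00000096472.2, chr9:21288410-21291407, minus strand), which encodes the INK4 protein p19, stood at 84.6, 83.3, 70.4 and 68.4 with a compact peak of 904 to 1107 bp. By enrichment the order was the same for both genes, WT highest and H2A.Z siRNA lowest, but ranked by p-value NT siRNA was highest and Anp32e null lowest for both, at 94.8 and 92.4 for Cdkn2c and at 98.1 and 94.9 for Cdkn2d.

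The first comparison asked what changed with loss of ANP32E. None of the 7 genes changed promoter rank by 10 points or more between Anp32e null and WT cells, where 6.52% of 14317 genes were higher by that much and 11.1% lower. Cdkn1c was 1.86 points higher and the other 6 genes were lower, from -0.332 points for Cdkn1b to -4.9 points for Cdkn2c. Directions this small depended on the ranking. By p-value Cdkn1c was at -0.681, Cdkn1a at 3.1 and Cdkn1b at 2.13 points, and scaled to the shallowest list Cdkn1a was at 2.07, Cdkn1b at 0.347 and Cdkn1c at 8.63 points. Cdkn2a, Cdkn2b, Cdkn2c and Cdkn2d stayed below 0 in both. The median of the 7 genes was -1.62 points and that of all genes -1.36 points. On the alternative scale of summit fragments over the genome-wide background, the median promoter was 1.56 times as high in Anp32e null as in WT cells (0.65 on the log2 scale), and relative to that shift the 7 genes lay between 0.871 (Cdkn1c) and 1.30 (Cdkn1b). The 95% counting interval left out 1 for Cdkn1b alone, at 1.10 to 1.54. Peak widths differed by less than 1.5-fold for all 7 genes, against 3.70% of genes wider and 4.81% narrower by that much.

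The second comparison asked what changed when H2A.Z was depleted in Anp32e null cells. Again none of the 7 genes moved by 10 points, while 14.1% of 14559 genes were higher and 2.56% lower by that much. Cdkn1c (7.67 points), Cdkn2a (6.02 points) and Cdkn1b (6.0 points) were higher after H2A.Z siRNA, and Cdkn2b, Cdkn2d, Cdkn2c and Cdkn1a were lower. Cdkn1a was the lowest at -8.49 points, a change that stood at the 3.65th percentile of all genes. These values depended on the ranking. With both lists cut to the same number of peaks Cdkn1a was at -20.8 and Cdkn1c at -1.52 points, and 11% of all genes were lower by 10 points. With pileups scaled to the shallowest list Cdkn1a was at -10.4 and Cdkn1c at 4.71 points, and 5.27% of all genes were lower by 10 points. Among peaks with a −log10 q of 5 or more Cdkn1c was 10.4 points higher, as were 19.2% of all genes by 10 points. The median of the 7 genes was -1.29 points, against 2.08 points over all genes. In summit fragments over background, where the median promoter ratio was 0.807 (-0.31 on the log2 scale), Cdkn1a was level with the other promoters at a relative 0.988 (0.882 to 1.11). Cdkn2c (0.860, 0.768 to 0.965) and Cdkn2d (0.885, 0.809 to 0.968) were lower than the median promoter, and Cdkn1b (1.13, 1.02 to 1.25) was higher. The Cdkn2a ratio and rank change set the ARF peak with H2A.Z siRNA against the p16 peak with NT siRNA, so its starts are given apart. Their heights over background were 85.0 with NT siRNA and 84.5 with H2A.Z siRNA at ARF, and 73.2 and 67.1 at p16. These heights are not divided by the median promoter ratio of 0.807, which is a larger drop than at either start.

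Cdkn1c was also the 1 gene of the 7 whose promoter peak was wider by 1.5-fold or more after H2A.Z siRNA, at 2.05-fold, in a comparison in which 14.7% of genes were wider by that much and 0.769% narrower. This ratio takes the NT siRNA peak of 898 bp alone and leaves out the separate NT siRNA peak of 296 bp that the wide peak also covers. The median width ratio was 1.18 for the 7 genes and 1.14 for all genes. The H2A.Z siRNA list was the deeper of the pair by 4.59 times, and the part of depth in this width was not tested.

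**Figure D2:**
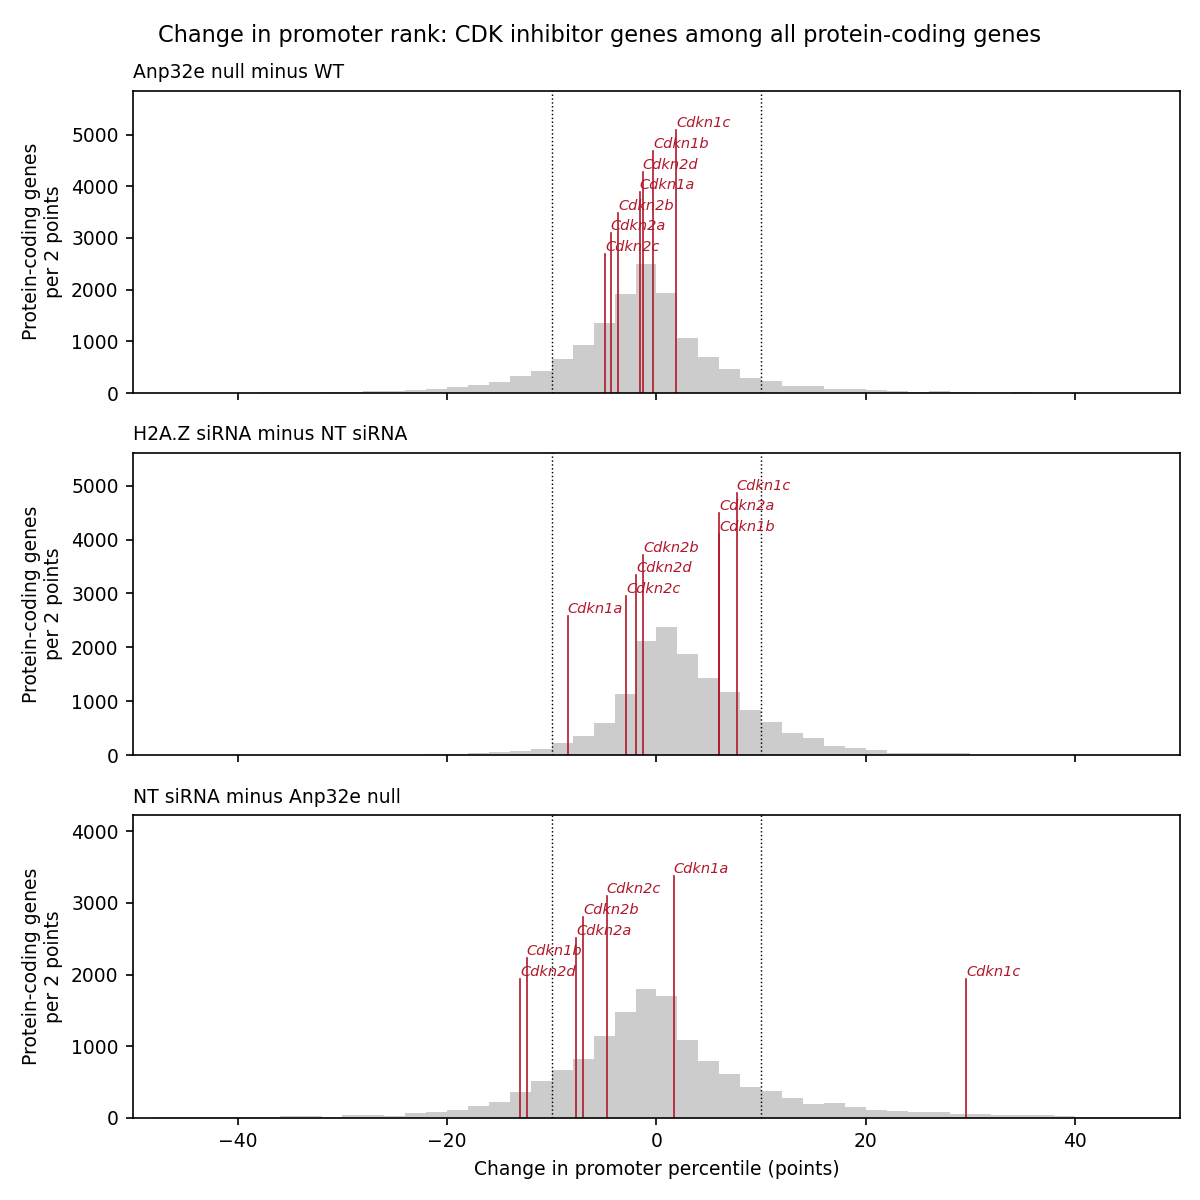
Change in promoter percentile (x axis, points) of all protein-coding genes with a promoter peak in both lists (grey, genes per 2-point bin) and of the 7 CDK inhibitor genes (red lines). Dotted lines mark 10 points; genes past 50 points in either direction are off the axis. The 7 genes lie within 10 points in the upper panels, and Cdkn1c lies at 29.6 in the lowest.

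The largest difference lay between the lists of Anp32e null cells with and without siRNA transfection. These differ in transfection, in the number of libraries and in the experiment, which cannot be told apart. Cdkn1c was 29.6 points higher in NT siRNA than in Anp32e null cells, a change at the 97.8th percentile of all genes, and Cdkn2d (-13 points) and Cdkn1b (-12.4 points) were lower. In this comparison 13.5% of 14219 genes were higher and 12.3% lower by 10 points, and 5.13% were higher by 20 points. Cdkn2a, Cdkn2b and Cdkn2c stood lower, at -4.76 to -7.66 points, and Cdkn1a was 1.63 points higher. The Cdkn2a value of -7.66 sets the p16 start with NT siRNA against the ARF start in Anp32e null cells. Start by start, ARF was at percentile 80.5 against 88.5 and p16 at 80.8 against 84.5. The median of the 7 genes was -6.99 points, against -0.52 points over all genes. No gene of the 7 had a promoter peak wider or narrower by 1.5-fold in this comparison, where 5.82% of genes were wider and 5.88% narrower by that much. Epithelial markers moved in the same direction as Cdkn1c: 3 of the 3 with a promoter peak in both lists were 20.2 to 40.2 points higher in NT siRNA cells, and Krt18 had a peak in both siRNA lists and in neither untransfected list. Other marker lists moved as well in this comparison. Of 10 fibroblast markers 4 were lower by 10 points or more (Col1a2, Vim, Fn1 and Twist1, at -17.9 to -12.8 points) and 1, Prrx1, was higher by 12.3 points. Of 3 endothelial markers with a peak in both lists Cdh5 was higher by 14.1 points, and of 3 neural markers Neurog2 and Rbfox3 were higher by 12.6 and 10.7 points. The part of these markers in the Cdkn1c result was not tested.

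The Cdkn1c difference held when peaks were ranked by their p-value (26.0 points) or within lists of equal length (25.6 points). In summit fragments over background, however, Cdkn1c was 2.57 times as high in NT siRNA as in Anp32e null cells (1.74 to 3.85), while the median promoter was 2.12 times as high (1.09 on the log2 scale). The relative ratio of 1.21 has an interval of 0.821 to 1.81, so that on this scale Cdkn1c could not be set apart from promoters at large at this depth. For the genes that ranked lower the scales disagreed. Cdkn2d was 1.49 times the median promoter (1.29 to 1.73) although it ranked lower, and ranked by p-value it was 3.16 points higher. Cdkn1b was at a relative 0.938 (0.811 to 1.09) and -0.83 points by p-value. Cdkn1a, nearly level by rank, was 2.22 times the median promoter (1.79 to 2.78), and 17.1 points higher by p-value. The enrichment that sets the rank divides by a local background, and that background was 60.3 fragments at Cdkn2d and 45.6 at Cdkn1a in NT siRNA cells, against 25.1 and 17.1 in Anp32e null cells, but 10.5 against 11.3 at Cdkn1c.

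**Figure D3:**
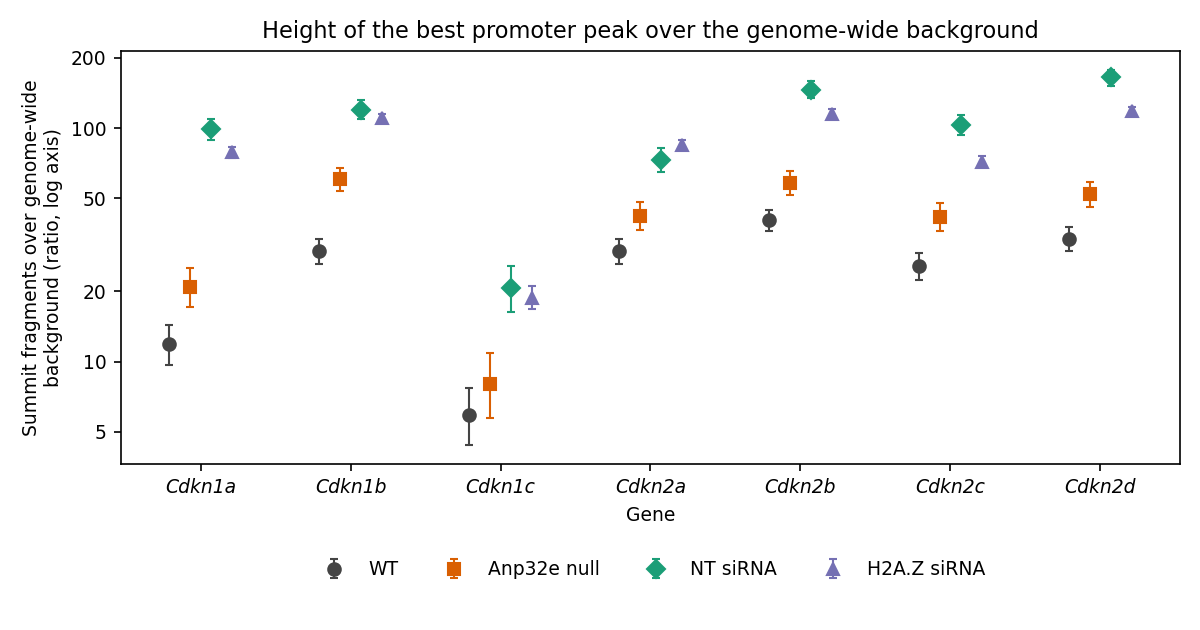
Summit fragments of the best promoter peak divided by the genome-wide background of its list (y axis, ratio on a log axis) for each gene (x axis) and list. Bars are 95% Poisson intervals and cover counting error only. All 7 genes stood higher in both siRNA lists than in the untransfected lists, as did 83.2% of protein-coding genes with a promoter peak in all 4 lists, with Cdkn1c at 20.6 and 18.8 against 5.88 and 8.01.

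More sites were called in the loci after H2A.Z siRNA, but not when the lists were cut to the same length. Overlapping peaks of the 4 lists merged into 33 sites in the 7 windows, with 21 called in WT cells (63.8% of the sites of the genome were called there), 22 in Anp32e null cells (62.4%), 24 with NT siRNA (67.2%) and 33 with H2A.Z siRNA (84.2%). Of these, 19 sites (57.6%) were shared by all 4 lists, against 45.9% of 128522 merged sites in the genome. All 8 sites at the starts of the 7 genes were shared, and so were 11 of the 25 sites elsewhere. Promoter sites and other sites of the genome were not counted apart, so this contrast has no background beside it. The 8 sites found in a single list (24.2%, against 26.2% in the genome) were all in the H2A.Z siRNA list, where they ranked low, between percentiles 1.26 and 32.2. How many single-list sites of the genome belong to that list was not counted, and it held 84.2% of all merged sites. With the pileup scaled to the shallowest list 5 of the 8 remained, and with lists of equal length 1 remained. Counted as peaks, the windows held 23 in WT, 22 in Anp32e null cells, 27 with NT siRNA and 33 with H2A.Z siRNA, and in lists of equal length 23, 22, 23 and 19, so that the H2A.Z siRNA list went from the most to the fewest. Near the edge of the rule, the farthest peak taken in lay 9877 bp from a gene and the nearest peak outside every window 10765 bp (percentile 5.44, H2A.Z siRNA list), and the nearest peak left out as a promoter peak lay 2439 bp from a start.

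The Cdkn1a locus held 3 sites that were called in siRNA lists alone. For the genome the share of such sites was not counted, and the H2A.Z siRNA list held 84.2% of all merged sites. A site 8.72 kb ahead of the upstream start was called in NT siRNA (percentile 16.4) and H2A.Z siRNA cells (percentile 17.3), and in neither untransfected list. Sites 10.0 kb ahead of it (percentile 4.91) and 9.96 kb downstream, at the 3′ end of the gene (percentile 32.2), were called in H2A.Z siRNA cells alone. The WT and Anp32e null lists held nothing in this window but the promoter and intron peaks.

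Upstream of Cdkn1c, 3 sites were present in all 4 lists, 3.0, 5.50 and 9.08 kb ahead of the gene. The site at 3.0 kb was at percentile 18.8 in WT, 13.3 in Anp32e null cells, 23.9 with NT siRNA and 26.9 with H2A.Z siRNA. At 5.50 kb the values were 27.8, 35.0, 27.3 and 43.0, and at 9.08 kb they were 35.3, 43.8, 52.0 and 54.3. The promoter, at 18.5 in WT cells, was therefore no higher than these distal sites there, and the lists ordered each site differently. A site at 3.98 kb was called after H2A.Z siRNA alone (percentile 4.83, 119 fragments).

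Cdkn2a and Cdkn2b share the interval between them, and a site there was as enriched as a promoter. It lay 7.67 kb ahead of the ARF start (chr4:89301907-89302650, outside annotated exons) and was at percentile 92.7 in WT, 87.8 in Anp32e null cells, 74.8 with NT siRNA and 77.5 with H2A.Z siRNA. A weaker site 9.09 kb ahead of ARF was absent from the WT list and stood at 2.05, 13.8 and 19.9 in the others. Inside Cdkn2a, an intronic site 5.60 kb after the ARF start was shared by all lists (29.3, 41.7, 13.1 and 38.0), whereas 2 sites 17.6 and 19.5 kb after it were called in H2A.Z siRNA cells alone. Toward and past the 3′ end of Cdkn2a the sites were patchy. The site at 18.3 kb was missing from the Anp32e null list and the site at 20.6 kb, near the start of the non-coding gene Gm12606, from the NT siRNA list, that at 30.2 kb was missing from the WT list, the site at 26.4 kb was called in both siRNA lists, and the site at 27.9 kb in H2A.Z siRNA cells alone. All of them ranked at percentile 40.1 or lower. A site within Cdkn2b, 2.62 kb after its start, was also called in H2A.Z siRNA cells alone. It ranked at percentile 4.02 although its summit held 381 fragments, 21.4 times the genome-wide background, with a local background of 190 fragments.

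**Figure D4:**
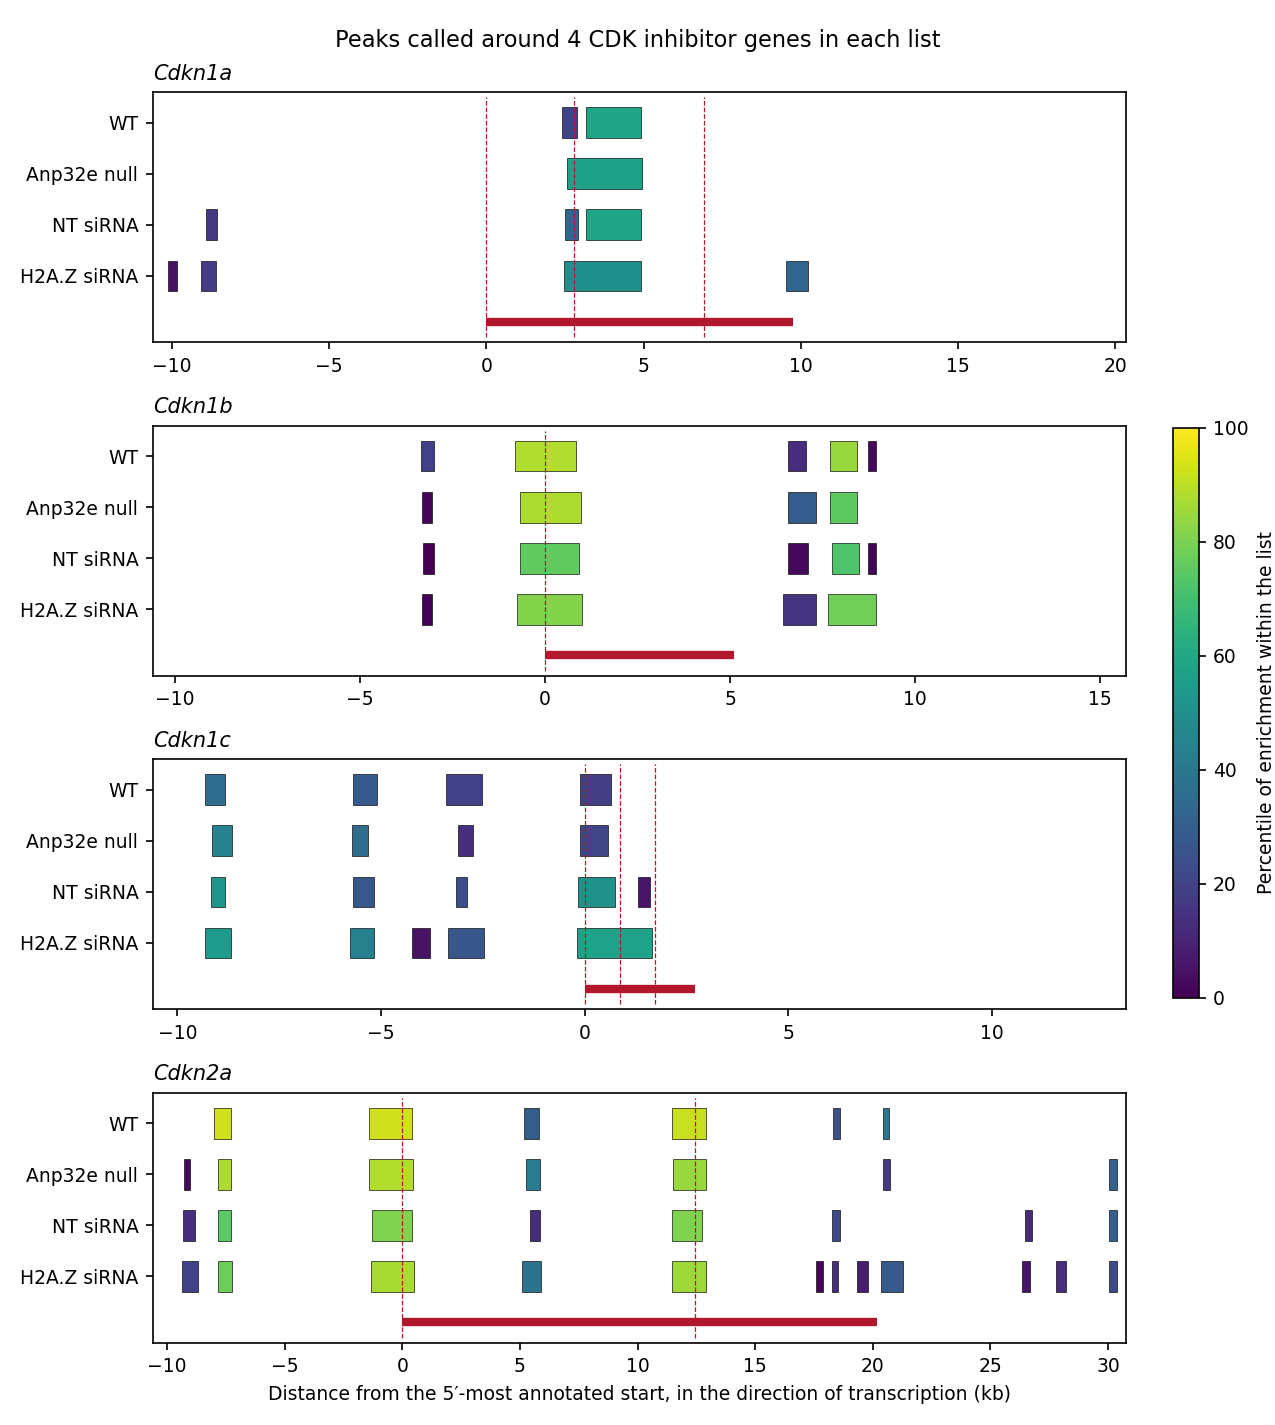
Peaks called in each list (rows) around Cdkn1a, Cdkn1b, Cdkn1c and Cdkn2a, by distance from the 5′-most start (x axis, kb) and coloured by percentile of enrichment. The red bar is the gene and dashed lines are start groups; the Cdkn1a peaks sit over and after the second start with none at the first, and the Cdkn1c promoter peak is 1843 bp wide in the H2A.Z siRNA row.

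At Cdkn1b all 4 sites were shared by all 4 lists. The site 8.16 kb after the Cdkn1b start, near the starts of the non-coding genes Lockd (419 to 538 bp from the summit) and Gm44238 (1439 to 1558 bp), was at percentile 84.4, 75, 71.9 and 78.3 across the lists in the order used above. The site 3.21 kb ahead of Cdkn1b ranked far lower, at 18.8, 1.74, 0.291 and 0.468. At Cdkn2c all 3 sites were shared, and the one 9.26 kb ahead was the Faf1 promoter, at 98.8, 97.1, 97.7 and 97.6. The one on the other side of the gene lay at the start of the non-coding gene 9630013D21Rik, at 94.5, 86.7, 80.0 and 90.1. At Cdkn2d 2 of 3 sites were shared, with the site 3.36 kb after the start belonging to Kri1 (58.5, 52.0, 53.1 and 58.2). The median number of peaks in a window was 3 for the 7 genes and 3 for all protein-coding genes in every list but that of H2A.Z siRNA, where it was 4 against 3. Windows differ in length, and per 10 kb the median of the 7 genes was higher, at 1.14 against 0.54 peaks in WT, 1.21 against 0.525 in Anp32e null cells, 1.21 against 0.605 with NT siRNA and 1.59 against 0.763 with H2A.Z siRNA.

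The bases under the summits were counted at the 33 sites. In 201 bases around the H2A.Z siRNA summit, the 19 sites shared by all lists held a median of 14 CpGs and the 8 sites of the H2A.Z siRNA list alone a median of 3.5, against 2 over all 108409 summits of that list. The shared sites include the 8 at the starts of the 7 genes, which held a median of 19 CpGs, and the 11 shared sites elsewhere held a median of 7. GGGCGG was found in 15 of the 33 sites, against 11.2% of all summits, and in 7 of the 8 sites at the starts of the 7 genes. TGANTCA was found in 3 of the 33, against 32% of all summits. The p53 element was found in none of the 33, and in 0.0701% of all summits.

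The proteins that CDK inhibitors act on and the factors that control them were read from a list of 48 genes: CDKs, cyclins, the Rb and E2F families, regulators of CDK inhibitor turnover, and transcriptional regulators. All 48 had a promoter peak in all 4 lists, against 63.8% of protein-coding genes. Between Anp32e null and WT cells 0 were higher and 4 lower by 10 points or more (Bmi1, E2f1, E2f2 and Pkmyt1), with a median of -4.31 points, against 6.52% of all genes higher and 11.1% lower. After H2A.Z siRNA 4 were higher (Ccnd1, Foxo1, Id1 and Rbl1) and 0 lower, with a median of 1.57 points, against 14.1% of all genes higher and 2.56% lower. Between NT siRNA and Anp32e null cells 4 were higher and 5 lower, with a median of -1.99 points, against 13.5% and 12.3% of all genes. In no comparison did the list hold a larger share of such genes than all genes did. Ccnd1, the cyclin D1 gene whose product INK4 proteins oppose, was the largest after H2A.Z siRNA at 18.8 points, from percentile 19.2 to 38.1. No gene of the list reached 20 points in any comparison, and those named here were chosen after their values were seen.

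The CDK4 and CDK6 partners of the INK4 proteins stayed within 10 points in each comparison. Cdk4 was at percentile 72.7 in WT, 67.2 in Anp32e null cells, 63.6 with NT siRNA and 67.0 with H2A.Z siRNA, and Cdk6 at 83.7, 74.6, 72.3 and 72.6. Trp53, which encodes p53, the activator of Cdkn1a, was at 77.4, 76.3, 65.7 and 62.9. By enrichment its course was thus lower in both siRNA lists, whereas Cdkn1a was lower in the H2A.Z siRNA list alone. Ranked by p-value, Cdkn1a was higher in both siRNA lists, at 91.1 and 88.3 against 70.9 in WT and 74.0 in Anp32e null cells.

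Around Cdkn1c, 7 of 8 genes of the imprinted domain had a promoter peak in all 4 lists, against 63.8% of protein-coding genes. The exception was Kcnq1, a potassium channel gene, with a peak in NT siRNA cells alone (percentile 6.96). Slc22a18, a maternally expressed transporter gene next to Cdkn1c, was at percentile 7.99 in WT, 26.7 in Anp32e null cells, 31.8 with NT siRNA and 63.8 with H2A.Z siRNA, that is 18.8 points higher in Anp32e null than in WT and 32 points higher after H2A.Z siRNA. Kcnq1ot1, the non-coding RNA that silences the domain on the paternal allele, was at 84.4, 78.5, 90.2 and 83.0. Between NT siRNA and Anp32e null cells, where Cdkn1c was 29.6 points higher, Ascl2, a transcription factor gene of the trophoblast, was 19.1 points higher (76.0 against 56.9), Kcnq1ot1 11.7 points and Phlda2 0.202 points, and the 4 other neighbours with a peak in both lists lay between -8.32 and 5.08 points.

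Among 13985 other protein-coding genes with a promoter peak in all 4 lists, the 5 closest to Cdkn1c by Euclidean distance over the 4 percentiles were Acox2 (2.85 points), Tbc1d24 (3.21 points), Wnk2 (5.26 points), Ttc9b (6.04 points) and Fbxo17 (6.63 points). Acox2, for example, was at percentile 15.8, 19.5, 49.9 and 57.0. The likeness rests on 4 lists, of which 3 are from Anp32e null cells.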

How the data were processed

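ATAC-seq reads of WT and Anp32e null MEFs were aligned by the authors with Bowtie2 to mm10 and duplicates were removed with Picard. MACS2 called peaks from read pairs after the libraries of a group had been merged, and the 4 deposited narrowPeak lists were used as they are. Column 7 of the deposited lists is a fold (ratio) of the summit pileup over local background, with a pseudocount of 1 on both, and columns 8 and 9 are scores from the authors' peak caller, the −log10 p-value and −log10 q-value. Peaks on assembled chromosomes were kept, and column 7 was ranked within each list. Pileup and local background were solved from columns 7 and 8, and the pileup was whole (within 0.05) for 100% of peaks; the genome-wide background is the lowest local background typical of a list. The solver was tested on simulated data. Intervals are exact, at 95%, and cover counting error only. Overlaps of at least 1 bp were found with bedtools 2.31.1. A change of 10 points, or 1.5-fold in width, was counted without a test, since 1 list per group holds no replicates. All 7 genes are given in every list; pathway and neighbouring genes were to be named for a peak missing from some lists or a change of 20 points, genes with a TSS in a window for a peak there, and markers as counts. Every pathway gene named, Kcnq1ot1, Phlda2, Ascl2 and the markers named fall outside that rule and were chosen after their values were seen. Genes, lists and tests were chosen with earlier results of these data known. Another TSS window, locus flank, annotation, ranking, peak number, q-value limit and depth scaling were tried.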

Additional observations from a re-analysis of the deposited data

How the results depend on the processing

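Percentiles, ranks and widths were recomputed under other settings; a percentile counted as moved past 10 points, a rank change when it crossed 10 points (for pileups, 1.5-fold), and a count or width past 1.5-fold. The 7 genes kept a promoter peak in every list with TSS windows of 500 bp and 2 kb, protein-coding transcripts alone, −log10 q of 5 or more, lists of equal length and depth scaling. Among the top 20000 peaks of each list, 5 had one in WT, 5 in Anp32e null cells, 3 with NT siRNA and 2 with H2A.Z siRNA, with Cdkn1a and Cdkn1c missing from all. Ranked by p-value, the median percentile of the 7 genes was 94.7 in WT, 93.5 in Anp32e null cells, 94.8 with NT siRNA and 96.4 with H2A.Z siRNA, and ranked among promoter peaks alone it was 75.9 (WT), 70.1, 60.6 and 60.0. The median rank change between NT siRNA and Anp32e null cells was -10.94 points among promoter peaks alone, but 2.43 points ranked by p-value and 0.24 in log2 pileup. Cdkn2d reversed in that comparison, to 3.16 points by p-value and 0.58 in log2 pileup, and the cause was not tested. The 33 locus sites became 50 with a 20 kb flank and 10 in the top 20000 peaks, where 5 rather than 19 were in all 4 lists. Depth scaling of the rank changes, and leaving out the H2A.Z siRNA list (27 sites), were added after seeing the data.

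No paired analysis was possible because there is 1 list for each group, with the libraries merged where a group had several, and for the same reason leaving out single libraries was not run. Lists of 1 to 3 libraries, with depths that differ 4.59-fold, limit what a missing weak peak can show.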
